A study of Mus musculus with 6 samples.

Results

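Tmem88 and 9 genes of the Wnt pathway were followed in primitive macrophages grown from Ts1Cje or wild-type mouse embryonic stem cells. The 10 genes were found by symbol among the 55487 genes of the deposited tables: Tmem88, Dvl1, Dvl2, Dvl3, Ctnnb1, Axin1, Axin2, Apc, Gsk3b and Tcf7l2. Tmem88 was chosen by its measured level, which is lower in Ts1Cje libraries, so its genotype difference is given as a description with no test. The other 9 were taken as the pathway in which it acts. The Ts1Cje genotype models Down syndrome in mice through an extra copy of the distal part of chromosome 16. The Ts1Cje group had 3 libraries from stem cells of that genotype and the wild-type group had 3 from wild-type stem cells. Both groups were differentiated for 12 days with M-CSF, IL-3, SCF and VEGF and also with activin A, BMP-4 and FGF2. The comparison addresses the study's question of why Ts1Cje embryos have fewer microglia, at the level of RNA in macrophages of the embryonic type. The labels number the replicates by lot without saying whether a lot is a stem cell line, a differentiation or a preparation. The p-values below thus speak only of the spread among these 6 samples, which may be technical.

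Wnt ligands bind Frizzled receptors with the co-receptors Lrp5 and Lrp6, and the receptors then recruit Dishevelled, the protein family of Dvl1, Dvl2 and Dvl3. Without a ligand, Axin and Apc hold beta-catenin (Ctnnb1) for phosphorylation by the kinase Gsk3b, which marks it for destruction. With a ligand, Dishevelled blocks that complex, and beta-catenin enters the nucleus to act with TCF/LEF factors such as Tcf7l2. Tmem88 is a small membrane protein that binds Dishevelled through its C-terminal end and dampens the pathway. It is known from the differentiation of heart and blood precursors. Axin2 is both a scaffold of the destruction complex and a widely used target gene of beta-catenin.

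Tmem88 (ENSMUSG00000045377) lies on the minus strand of mm10 at chr11:69396519-69398234, outside chromosome 16. It has 2 exons, and its coding sequence has 477 bases, or 159 codons. The last 60 coding bases are shown because they encode the end of the protein that contacts Dishevelled. They lie in the second exon, at chr11:69397615-69397674 on the minus strand, and the capitals mark the last 3 codons before the stop codon.
Tmem88: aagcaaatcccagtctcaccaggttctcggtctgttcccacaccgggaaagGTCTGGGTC

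Total counts per library were 26146044 to 32658148 in Ts1Cje and 25484294 to 26372632 in wild-type libraries, with 17586 to 18935 genes detected in each. The cells carried the markers of macrophages: all 12 listed marker genes were detected, among them Csf1r, the receptor for M-CSF, at 538 to 607 TPM in Ts1Cje and 564 to 1232 TPM in wild-type libraries. TPM is a level scaled by gene length and by library, so it can be compared between genes. A principal component analysis set wild-type replicate 1 apart, at -63.4 on its first axis (49.6% of the variance), against -13.4 to 28.5 for the other 5 libraries. Across all 13821 genes tested, 1 gene passed an adjusted p of 0.05 (edgeR's quasi-likelihood test with Benjamini-Hochberg adjustment).

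Tmem88 was expressed in all 6 libraries. Its level was 10.4, 7.70 and 3.71 TPM in Ts1Cje replicates 1 to 3, against 28.1, 32.9 and 24.8 TPM in wild-type replicates 1 to 3. Every Ts1Cje library lay below every wild-type library, with a clear gap between the highest Ts1Cje and the lowest wild-type value. The means were 7.25 ± 3.35 TPM in Ts1Cje and 28.6 ± 4.09 TPM in wild-type libraries (SD, n = 3 each), a ratio of 0.253. These levels rest on 179, 106 and 62 counts in Ts1Cje and on 376, 464 and 342 counts in wild-type libraries. By edgeR its log2 fold change came to -2.00 ± 0.36 (SE), and it lay between -2.32 and -1.72 when single libraries were left out. By mean TPM over the 6 libraries Tmem88 ranked 5722 of 55487 genes, of which 13070 had a mean of at least 1 TPM. In bulk RNA, fewer cells that express a gene and less of its RNA per cell cannot be told apart.

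**Figure D1:**
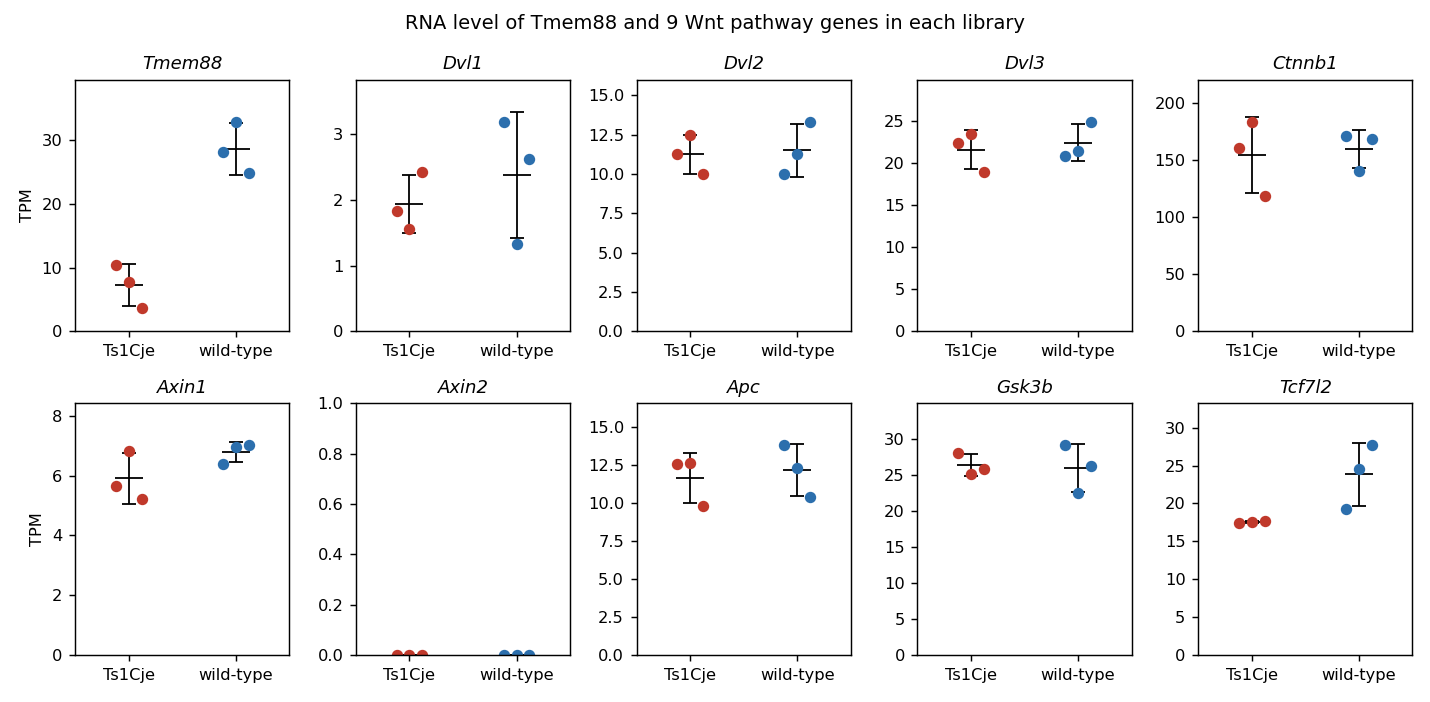
TPM of each of the 10 genes in every library, with Ts1Cje left of wild-type and a bar at each group mean. The Ts1Cje points of Tmem88, 3.71 to 10.4 TPM, lie below the wild-type points, 24.8 to 32.9 TPM. Tcf7l2 is the other gene whose groups do not overlap, and Axin2 is at 0 throughout.

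By mean TPM over the 6 libraries the order of the 10 genes was Ctnnb1 (156.8), Gsk3b (26.1), Dvl3 (22.03), Tcf7l2 (20.7), Tmem88 (17.9), Apc (11.9), Dvl2 (11.4), Axin1 (6.35), Dvl1 (2.16) and Axin2 (0). Ctnnb1 stood above the rest in every library. From Gsk3b down to Dvl2 each gene's values overlapped those of the next. Axin1 lay below Dvl2 without overlap but within the span of Tmem88, whose value in Ts1Cje replicate 3 was under every Axin1 value, and Dvl1 lay below Axin1 without overlap.

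Tmem88 can be expressed by endothelial and heart precursors, so markers of other cell types were read beside it. The 10 endothelial markers summed to 30.9, 32.1 and 13.5 TPM in Ts1Cje and to 9.20, 17.1 and 29.3 TPM in wild-type libraries, with Emcn and Cldn5 at 0 in all 6. Most of that sum was Kdr, at 8.08 to 16.8 TPM in Ts1Cje and 2.80 to 11.5 TPM in wild-type libraries, and Tie1, at 2.31 to 16.1 TPM in Ts1Cje and 1.85 to 9.78 TPM in wild-type libraries. Pecam1 was at 0.645 to 2.93 TPM in Ts1Cje and 1.75 to 4.24 TPM in wild-type libraries. The 8 cardiomyocyte markers summed to 1.21, 9.63 and 2.63 TPM in Ts1Cje and to 52.2, 1.54 and 0.988 TPM in wild-type libraries. The endothelial and the cardiomyocyte sum both overlapped between genotypes, and wild-type replicate 1 held most of the heart signal. All 3 cardiomyocyte genes tested had a negative log2 fold change. Of 7 endothelial genes tested, 3 had a positive and 4 a negative one. The summed levels of macrophage, blood progenitor, erythroid, mesenchymal, epithelial and of mast and megakaryocyte markers also overlapped. The 12 macrophage markers, for example, summed to 17483, 23650 and 34455 TPM in Ts1Cje and to 33807, 20424 and 14718 TPM in wild-type libraries. Sums can hide single genes. Of 6 blood progenitor genes tested, 4 were lower and 2 higher in Ts1Cje, with 1 lower without overlap. All 3 mast and megakaryocyte genes tested were lower, with 1 lower without overlap. Of 12 macrophage and 6 mesenchymal genes tested, 1 each was higher without overlap. Among all genes tested, 12.1% had groups without overlap. Only the sums of the pluripotent list did not overlap. Its 7 genes summed to 1.62, 1.96 and 2.44 TPM in Ts1Cje and to 0, 0 and 0.175 TPM in wild-type libraries, with Sox2 and Esrrb at 0 in all 6. These sums rest on few counts, 24, 12 and 22 in Ts1Cje and 0, 0 and 4 in wild-type libraries. None of the 7 genes had enough counts for the test. The part of these residual signals in the Tmem88 difference was not tested.

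No tested gene around Tmem88 passed the threshold. Of the 7 other genes of the table within 50 kb, 5 had enough counts for the edgeR test, with the smallest unadjusted p, 0.0883, for Chd3. Naa38, an accessory subunit of an N-terminal acetyltransferase complex, is encoded on the opposite strand and overlaps Tmem88 by 162 bases. Its log2 fold change was 0.04 ± 0.31 (SE), with 586 counts in Ts1Cje and 500 in wild-type libraries. The sources used here do not say whether counting used strand, so reads in that overlap cannot be assigned with certainty to either gene. Kdm6b, a histone demethylase that lies next to Tmem88, had a log2 fold change of -0.58 ± 0.53 (SE), Cyb5d1 one of -0.03 ± 0.28 and the chromatin remodeller Chd3 one of 0.62 ± 0.32. Dnah2, an axonemal dynein, had -1.97 ± 1.32, a value that rests on wild-type replicate 2 with 455 counts, against 8 to 77 counts in Ts1Cje and 14 and 22 in the other wild-type libraries. All 5 tested neighbours had overlapping groups. Kdm6bos and Gm22442 had too few counts.

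**Figure D2:**
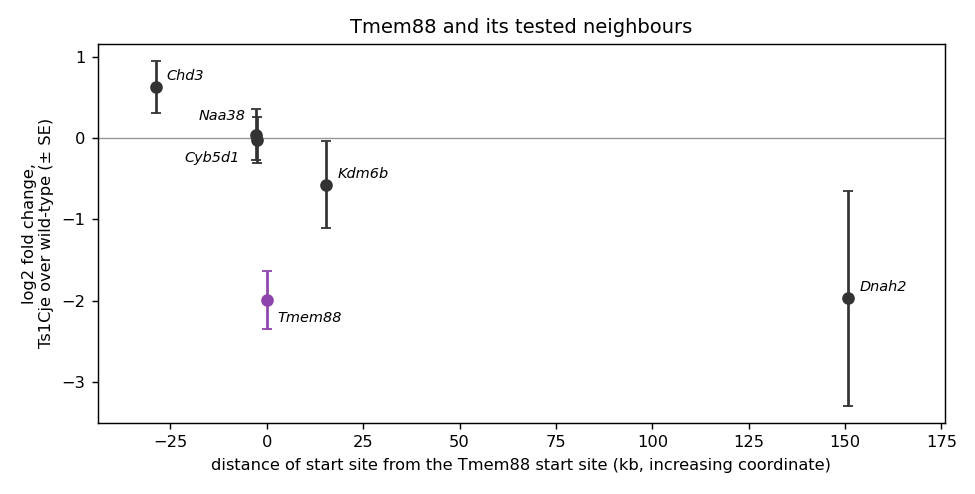
Log2 fold change, Ts1Cje over wild-type, of Tmem88 and its tested neighbours, placed by distance in kb from the Tmem88 start site, with bars for the SE. Tmem88 stands at -2.00, while Naa38 and Cyb5d1 lie at 0.04 and -0.03. Dnah2 has a wide bar.

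Genes were compared with Tmem88 over the 6 libraries by log2 CPM (counts scaled to the library total times its TMM normalisation factor). Stag1, a subunit of cohesin, tracked Tmem88 most closely, at a Pearson r of 0.994. Next came Zfp101 at 0.983, Fubp3 at 0.975, Elac1 at 0.974 and the deacetylase Hdac8 at 0.973. The genotype difference for which Tmem88 was picked is part of these values. After each genotype's mean was subtracted, the closest genes were Cbx3 at 0.996, Il7r at 0.994, Neurl3 at 0.993, Tdg at 0.993 and Ascc3 at 0.990. No gene was in both groups of 5. The correlations are a description of 6 libraries, in which all genes share depth and composition.

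The Dishevelled genes, which encode the partners of Tmem88, had overlapping levels in the genotypes. Dvl3, the most abundant, was at 22.4, 23.5 and 19.01 TPM in Ts1Cje and at 20.9, 21.4 and 24.95 TPM in wild-type libraries. Dvl2 was at 11.2, 12.5 and 9.998 TPM in Ts1Cje and at 9.97, 11.2 and 13.3 TPM in wild-type libraries. Dvl1 was at 1.83, 1.56 and 2.42 TPM in Ts1Cje and at 3.19, 1.33 and 2.62 TPM in wild-type libraries. The groups of all 3 genes overlapped, and the order Dvl3, Dvl2, Dvl1 held in every library. Log2 fold changes were -0.05 ± 0.14 for Dvl3, -0.03 ± 0.17 for Dvl2 and -0.28 ± 0.43 for Dvl1 (SE; edgeR adjusted p 0.950, 0.978 and 0.911). Dvl3 (chr16:20516982-20534010, plus strand) lies on chromosome 16 before Sod1, outside the segment in extra copy.

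Within the family, the shares of the 3 genes differed between genotypes by less than the spread between libraries. Dvl3 held 62.1 ± 1.39% of summed Dishevelled TPM in Ts1Cje and 61.8 ± 1.09% in wild-type libraries. Dvl2 held 32.3 ± 0.838% in Ts1Cje and 31.6 ± 2.06% in wild-type libraries, and Dvl1 held 5.68 ± 1.83% in Ts1Cje and 6.56 ± 2.74% in wild-type libraries (SD, n = 3 each). Two-sided exact permutation p was 0.9 for Dvl3, 0.8 for Dvl2 and 0.7 for Dvl1, where 3 libraries against 3 cannot give a p under 0.1. Adjusted over the 7 shares tested in the Dishevelled and TCF/LEF families, each exact p was 1.0. Dvl2 overlaps Acadvl by 2119 bases on the opposite strand, and Acadvl had 3355 counts in Ts1Cje and 3202 in wild-type libraries. The use of strand is not stated, so reads in that overlap cannot be assigned with certainty to either gene.

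Neither beta-catenin nor the tested genes of its destruction complex passed the test. Ctnnb1 was the most abundant of the 10 genes, at 160, 183 and 118 TPM in Ts1Cje and at 170, 140 and 168 TPM in wild-type libraries. The lowest and the highest value were both Ts1Cje libraries, and the log2 fold change was -0.06 ± 0.17 (SE; edgeR adjusted p 0.956). Gsk3b, which like Dvl3 lies on chromosome 16 before the segment in extra copy, was at 28.04, 25.1 and 25.8 TPM in Ts1Cje and at 29.1, 22.4 and 26.2 TPM in wild-type libraries. Apc, the large scaffold, was at 12.6, 12.6 and 9.75 TPM in Ts1Cje and at 13.8, 12.3 and 10.4 TPM in wild-type libraries. Both genes overlapped between genotypes, with log2 fold changes of 0.03 ± 0.15 for Gsk3b and -0.07 ± 0.16 for Apc (SE; edgeR adjusted p 0.977 and 0.946). Axin1, the core scaffold, was at 5.67, 6.84 and 5.21 TPM in Ts1Cje and at 6.39, 6.95 and 7.01 TPM in wild-type libraries. Its log2 fold change was -0.20 ± 0.22 (SE; edgeR adjusted p 0.869), with overlapping groups.

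Axin2 had 0 counts in all 6 libraries and could not be tested. A count of 0 allows up to 3 counts, which is 0.0888 to 0.121 CPM in a library. Such limits cover counting error only, since PCR copies are not independent molecules. Its promoter window is shown because Axin2 is the usual readout of TCF factors and gave no reads here. The RefSeq window (GRCm38.p6, the assembly of mm10) runs from 250 bases before the start of the gene to 50 after it, at chr11:108920099-108920398 on the plus strand. It was searched on both strands for the letters CTTTG followed by any of AA, AT, TA and TT, 4 words that are forms of the TCF/LEF core and cannot match at the same position of a strand. None was in it, which says only that these letters are not in this window.
Axin2: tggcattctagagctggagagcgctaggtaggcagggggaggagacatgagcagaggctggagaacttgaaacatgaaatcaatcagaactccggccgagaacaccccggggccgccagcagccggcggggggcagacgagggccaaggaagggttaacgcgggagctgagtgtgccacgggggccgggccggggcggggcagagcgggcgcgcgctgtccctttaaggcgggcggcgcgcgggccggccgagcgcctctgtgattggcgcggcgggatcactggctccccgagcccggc

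Tcf7l2, the TCF factor of these cells, was lower in the Ts1Cje libraries without passing the threshold over all genes. Its level was 17.4, 17.5 and 17.6 TPM in Ts1Cje replicates 1 to 3, against 19.3, 24.5 and 27.7 TPM in wild-type replicates 1 to 3. The Ts1Cje libraries were close to each other and all lay below the wild-type libraries, which were spread out. The means were 17.5 ± 0.122 TPM in Ts1Cje and 23.8 ± 4.21 TPM in wild-type libraries (SD, n = 3 each). By edgeR the log2 fold change came to -0.43 ± 0.16 (SE) at an unadjusted p of 0.0276 and an adjusted p of 0.792. It was negative under each alternative, between -0.56 and -0.32. Without wild-type replicate 1, the library that stood apart, it was -0.56 with an unadjusted edgeR p of 0.00653 and an adjusted p of 0.921, and that of Tmem88 was -2.00. Of the 6 fits that each left out 1 library, 4 gave Tcf7l2 an unadjusted p above 0.05, at 0.0657 to 0.0865.

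Of the 8 genes other than Tmem88 that were tested, 0 passed the adjusted threshold in either direction by edgeR, against 0.00724% of all genes tested. By DESeq2 it was also 0 of 8, against 0.274% of the 16059 genes to which it gave an adjusted p. Tcf7l2 was the 1 of 8 with an unadjusted p under 0.05, against 5.79% of all genes. It was also the 1 of 8 whose groups did not overlap, against 12.1% of all genes. In the lower direction alone, the shares of all genes were 2.8% for the unadjusted p and 5.72% for groups without overlap. The log2 fold change was negative for 7 of the 8 and positive for 1, with a median of -0.06 beside -0.01 for all genes. Of the 8, Tcf7l2 and Axin1 stayed negative whichever library was left out, and the sign of the others turned in at least 1 such fit.

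Tcf7l2 lies at chr19:55741820-55933654 on the plus strand, and genes of chromosome 19 moved together between libraries. Relative to the wild-type mean, the median log2 CPM of 400 chromosome 19 genes was -0.20, 0.09 and -0.04 in Ts1Cje and -0.17, -0.03 and 0.23 in wild-type libraries. On the same scale Tcf7l2 was at -0.49, -0.47 and -0.31 in Ts1Cje and at -0.25, 0.05 and 0.20 in wild-type libraries. Its distance from that median was -0.28, -0.56 and -0.27 in Ts1Cje and -0.08, 0.08 and -0.03 in wild-type libraries. Both values are set relative to the wild-type mean, so the wild-type distances are small on average by construction. The order of the wild-type libraries was the same for Tcf7l2 and for its chromosome. In Ts1Cje libraries replicate 1 was lowest for both, but the order of replicates 2 and 3 differed. Each Ts1Cje value of Tcf7l2 lay further below the chromosome median than any wild-type value. When libraries were scaled by chromosome 19 genes alone, an alternative chosen after seeing the data, the log2 fold change was -0.35 with an unadjusted edgeR p of 0.0975. The part of the chromosome in the Tcf7l2 difference was not tested.

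**Figure D3:**
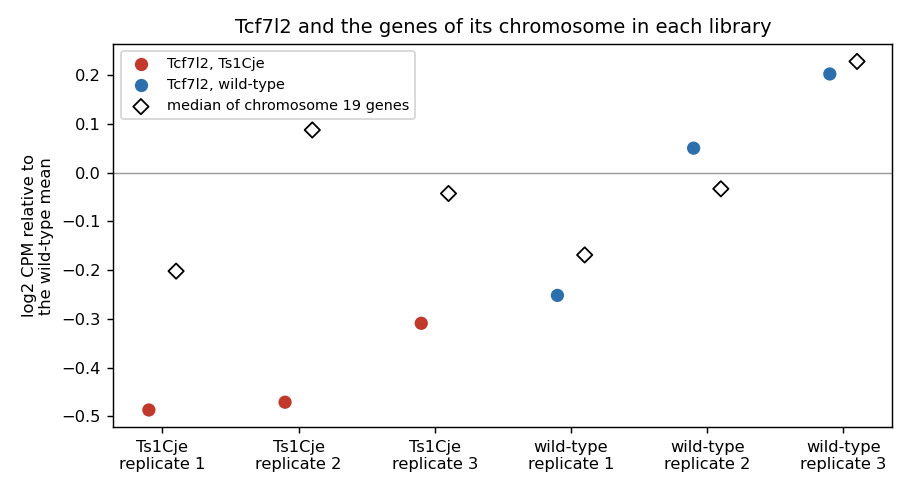
Log2 CPM relative to the wild-type mean in each library, for Tcf7l2 (filled points) and for the median of 400 genes of chromosome 19 (open diamonds). In Ts1Cje libraries Tcf7l2 lies 0.27 to 0.56 below the diamonds. Both are set relative to the wild-type mean, so their closeness in wild-type libraries is partly built in.

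Tcf7l2 supplied nearly all TCF/LEF transcripts. It held 99.6 ± 0.418% of summed TCF/LEF TPM in Ts1Cje and 99.1 ± 1.501% in wild-type libraries (SD, n = 3 each; two-sided exact permutation p 0.9). Tcf7 had 0 counts in Ts1Cje and 3 in wild-type libraries, and Lef1 had 4 counts in Ts1Cje replicate 1 and 0 elsewhere. Tcf7l1 had 6 counts in Ts1Cje replicate 3, 15 in wild-type replicate 1 and 0 elsewhere. Its share of summed TCF/LEF TPM was 0.814% in Ts1Cje replicate 3 and 2.28% in wild-type replicate 1. RefSeq gives Tcf7l2 a start inside the gene as well as one at its 5′ end. The window of the inner start, at chr19:55895071-55895370 on the plus strand of GRCm38.p6, is shown because it was the only one of 9 windows found for 7 of the 10 genes with a TCF/LEF word. Of all 32851 RefSeq windows of that length, 16.9% held such a word, so the match is a description and not a binding site. The capitals mark it.
Tcf7l2 inner start: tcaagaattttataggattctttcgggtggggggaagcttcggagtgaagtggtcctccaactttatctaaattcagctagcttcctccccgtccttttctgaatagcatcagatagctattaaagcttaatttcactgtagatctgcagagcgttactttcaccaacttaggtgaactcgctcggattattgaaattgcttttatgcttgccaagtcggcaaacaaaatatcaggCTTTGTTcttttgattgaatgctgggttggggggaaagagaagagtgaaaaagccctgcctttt

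The rest of the pathway was read through 123 listed genes, Tmem88 among them. Of these, 102 had at least 1 count, 50 had a mean of at least 1 TPM and 59 besides Tmem88 had enough counts for the test. By edgeR 0 of the 59 passed the adjusted threshold, against 0.00724% of all genes, and by DESeq2 0 of 66 with an adjusted p, against 0.274%. At an unadjusted p under 0.05 there were 4 higher and 2 lower, 10.2% of the 59 beside 5.79% of all genes (2.99% higher and 2.8% lower). Without wild-type replicate 3 there were 15 of 64, or 23.4%, beside 16.1% of all genes in that fit. The genotypes were fully separate in 4 genes that were higher and 3 that were lower in Ts1Cje, or 11.9% of the 59 beside 12.1% of all genes (6.38% higher and 5.72% lower). The log2 fold change was positive for 27 and negative for 32, with a median of -0.04 beside -0.01 for all genes.

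**Figure D4:**
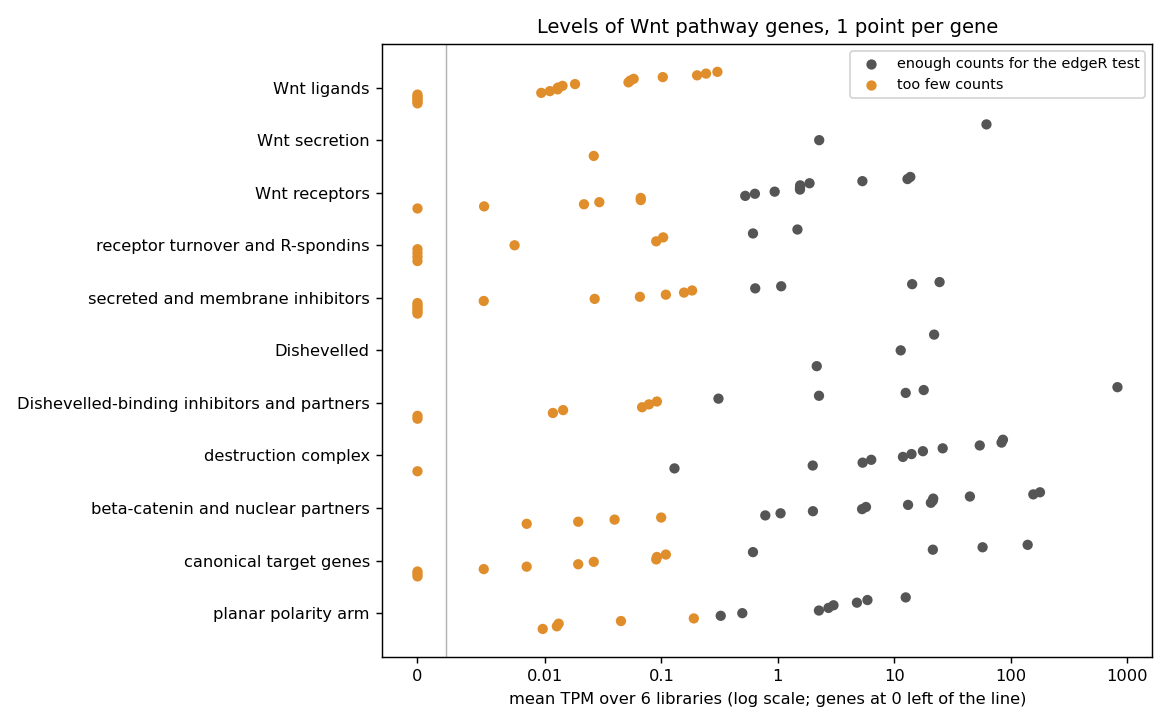
Mean TPM over the 6 libraries of each pathway gene on a log axis, in rows by role, with genes at 0 left of the line. Genes with enough counts for the test are grey and the others orange. No Wnt ligand had enough counts, while all 3 Dishevelled genes did.

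The macrophages held little RNA for Wnt ligands. None of the 19 ligand genes had enough counts for the test, and 6 of them, Wnt1, Wnt3a, Wnt7a, Wnt8a, Wnt9b and Wnt10a, had 0 counts. All ligands together came to 1.34, 1.27 and 1.44 TPM in Ts1Cje and to 1.85, 0.405 and 0.230 TPM in wild-type libraries. The groups overlapped through wild-type replicate 1. Wnt9a was at 0.165, 0.656 and 0.994 TPM in Ts1Cje libraries and at 0 in the wild-type libraries, with 60 counts against 0. With counts summed by genotype and a floor of 3 counts for the wild-type sum, that is at least 17.4-fold higher. This bound leaves out the spread between libraries, with 6, 19 and 35 counts in Ts1Cje replicates 1 to 3. By library, Ts1Cje replicate 1 was at 0.178 CPM, near the floors of 0.112 to 0.121 CPM for 3 counts in wild-type libraries. Wnt4 was at 0.284, 0.082 and 0.158 TPM in Ts1Cje and at 0.761, 0 and 0.164 TPM in wild-type libraries. Wls, the carrier that brings Wnt ligands to the cell surface, was at 58.3, 61.3 and 63.3 TPM in Ts1Cje and at 67.2, 61.0 and 61.3 TPM in wild-type libraries, with a log2 fold change of -0.04 ± 0.14 (SE). Porcn, the enzyme that attaches a lipid to Wnt ligands, had one of -0.63 ± 0.48.

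Among receptors, 10 of 16 were tested. Fzd8 was at 3.63, 1.54 and 1.84 TPM in Ts1Cje and at 0.613, 0.639 and 1.04 TPM in wild-type libraries. The groups did not overlap, and the log2 fold change was 1.61 ± 0.46 (SE) with an unadjusted edgeR p of 0.0083 and an adjusted p of 0.792. Fzd7, the most abundant Frizzled receptor, was at 9.11, 14.3 and 8.32 TPM in Ts1Cje and at 27.7, 9.98 and 13.1 TPM in wild-type libraries, which overlapped. As a share of all Frizzled TPM, Fzd7 made up 58.4, 52.3 and 48.2% in Ts1Cje and 80.1, 66.5 and 72.5% in wild-type libraries. The Fzd7 shares did not overlap, and they were not tested. The second largest share was a different gene in each Ts1Cje library, Fzd8 (23.3%), Fzd6 (21.4%) and Fzd1 (21.9%) in replicates 1 to 3. In wild-type replicates 1 to 3 it was Fzd1 (9.12%), Fzd5 (11.9%) and Fzd5 (10.5%). Fzd6 was uneven among Ts1Cje libraries, at 0.152, 5.84 and 1.86 TPM, against 0.245, 0.559 and 0.667 TPM in wild-type libraries. The co-receptor Lrp6 was at 10.99, 10.9 and 15.4 TPM in Ts1Cje and at 13.7, 15.6 and 11.4 TPM in wild-type libraries (log2 fold change -0.11 ± 0.22, SE). Ptk7, a co-receptor of planar polarity, had a log2 fold change of -1.82 ± 1.18 on few counts. Of the genes that set receptor turnover, Lgr4, a receptor for R-spondins, had 0.66 ± 0.52 and Znrf3, a ubiquitin ligase that removes Frizzled, had -0.47 ± 0.50.

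Among the listed inhibitors, Tmem88 left aside, none passed the adjusted threshold. Kremen1, a receptor for Dickkopf proteins that takes Lrp6 off the surface, was at 18.8, 16.7 and 16.2 TPM in Ts1Cje and at 11.7, 9.03 and 13.1 TPM in wild-type libraries. All Ts1Cje values exceeded all wild-type values, and the log2 fold change was 0.62 ± 0.18 (SE) with an unadjusted edgeR p of 0.00888 and an adjusted p of 0.792. Bambi averaged 21.96 ± 5.76 TPM in Ts1Cje and 27.1 ± 9.62 TPM in wild-type libraries (SD, n = 3 each). It is a pseudoreceptor, and whether it inhibits the pathway in these cells was not tested. The Dickkopf genes Dkk2 and Dkk3 had log2 fold changes of -1.25 ± 1.07 and -0.98 ± 1.31 (SE), with their highest level in wild-type replicate 1. Of the other 11 genes listed as binding Dishevelled, 4 were tested, and their groups overlapped. Dab2, an endocytic adaptor that is abundant in macrophages, averaged 885 ± 169 TPM in Ts1Cje and 773 ± 352 TPM in wild-type libraries (SD, n = 3 each; log2 fold change 0.20 ± 0.33, SE). Cxxc5, Invs and Dact1 had log2 fold changes of -0.33 ± 0.33, -0.32 ± 0.37 and 0.66 ± 1.11 (SE). Tmem88b, the paralog of Tmem88, had 0 counts in Ts1Cje and 12 in wild-type libraries, all 12 in replicate 1.

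**Figure D5:**
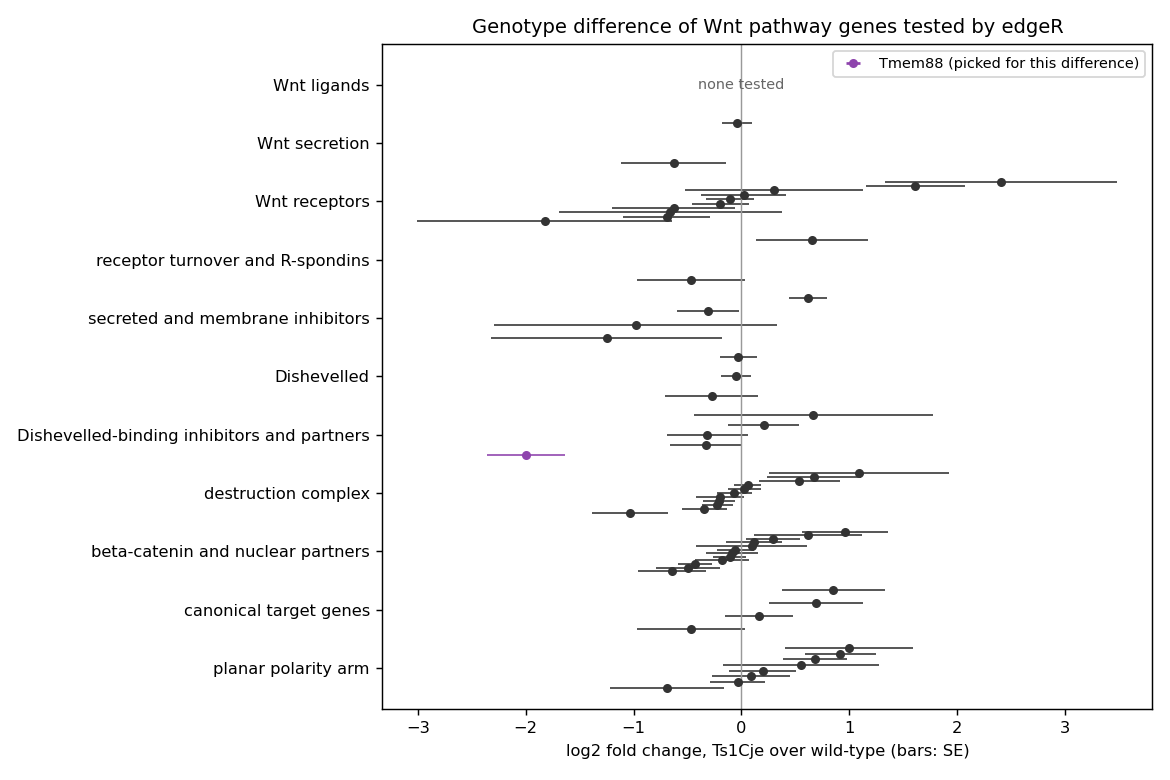
Log2 fold change, Ts1Cje over wild-type, of each tested pathway gene in rows by role, with bars for the SE. Tmem88, at -2.00, is marked apart because it was picked for this difference. Fzd8 lies at 1.61 and Amer1 at -1.03, and neither passed the adjusted threshold.

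In the destruction complex 11 of 12 genes were tested, 5 with positive and 6 with negative values. Amer1, which brings Apc and Axin to the membrane, was at 1.24, 1.64 and 1.07 TPM in Ts1Cje and at 3.798, 1.93 and 2.30 TPM in wild-type libraries. The groups did not overlap, and the log2 fold change was -1.03 ± 0.35 (SE) with an unadjusted edgeR p of 0.02 and an adjusted p of 0.792. Csnk1a1, the kinase that primes beta-catenin, averaged 79.2 ± 5.30 TPM in Ts1Cje and 92.7 ± 9.95 TPM in wild-type libraries (SD, n = 3 each). The F-box proteins Fbxw11 and Btrc, which recognise phosphorylated beta-catenin, had log2 fold changes of 0.06 ± 0.13 and -0.34 ± 0.21 (SE). Tnks2, a tankyrase that marks Axin for destruction and lies on chromosome 19, was at 57.6, 84.6 and 57.3 TPM in Ts1Cje and at 22.2, 27.9 and 76.6 TPM in wild-type libraries. Wild-type replicate 3 was within the Ts1Cje values, and the other wild-type libraries were far lower.

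The same split of the wild-type libraries ran through several nuclear partners and targets. Tle5, listed as Aes and a short relative of the Groucho corepressors, was at 237, 232 and 236 TPM in Ts1Cje and at 64.5, 88.6 and 215 TPM in wild-type libraries. Its log2 fold change was 0.96 ± 0.40 (SE), with an unadjusted edgeR p of 0.0447 and an adjusted p of 0.792. Ccnd1, the cyclin of early cell cycle entry, was at 36.8, 24.0 and 21.8 TPM in Ts1Cje and at 7.05, 10.6 and 28.6 TPM in wild-type libraries. Myc was at 82.7, 74.0 and 55.7 TPM in Ts1Cje and at 21.2, 31.6 and 79.6 TPM in wild-type libraries. In each of the 3 genes wild-type replicate 3 was near or within the Ts1Cje values and wild-type replicates 1 and 2 lay below them. The co-activators Bcl9l and Bcl9 had log2 fold changes of -0.65 ± 0.31 and -0.50 ± 0.30 (SE), and the groups of Bcl9l did not overlap.

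Of the 14 canonical target genes, 4 were tested and none passed. Axin2, Sp5 and Lgr5 had 0 counts, and Nkd1, Rnf43, Notum, Lef1, Tcf7, Dkk1 and Apcdd1 had 2 to 36 counts over all libraries. Dkk1, for example, had 2 counts in Ts1Cje and 12 in wild-type libraries, and 30 of the 36 counts of Rnf43 were in Ts1Cje replicate 3. Ccnd1, Myc and Cd44 were abundant, and in many cells they also answer to other signals. Their log2 fold changes were 0.85 ± 0.48, 0.69 ± 0.43 and 0.16 ± 0.31 (SE), and the groups of all 3 overlapped. In the planar polarity arm, which runs through Dishevelled without beta-catenin, 8 of 13 genes were tested. Prickle2 was at 6.51, 5.84 and 10.6 TPM in Ts1Cje and at 5.30, 3.58 and 3.50 TPM in wild-type libraries, with no overlap. Its log2 fold change was 0.91 ± 0.33 (SE), with an unadjusted edgeR p of 0.0253 and an adjusted p of 0.792. Vangl1, Celsr3 and Prickle1 had 0.68 ± 0.29, 0.998 ± 0.60 and -0.69 ± 0.53 (SE).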

How the data were processed

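RNA was sequenced from 3 Ts1Cje and 3 wild-type cultures, with 450 ng of total RNA per library and a SMART-seq HT Plus kit, per the labels. FastQC 0.11.7, Trimmomatic 0.38, HISAT2 2.1.0 and featureCounts 1.6.3 are named with mm10 in the submitters' processing notes. The annotation, the use of strand and the handling of reads with several positions are not stated there. Per library, the authors deposited raw counts and TPM of each gene, in 2 tables with 0 columns of other samples. The deposited TPM were the counts divided by 1 length per gene and rescaled, within 0.1%, for 11102 of 11102 genes checked.

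Raw counts were tested with edgeR 4.0.16 in R 4.3.3 (filterByExpr at minima of 10 counts and 15 in total, TMM factors, quasi-likelihood test). The Benjamini-Hochberg adjustment ran over all 13821 tested genes, and 0.05 was the threshold. SE was taken as the log2 fold change over the root of F, without sign, and positive values mean higher in Ts1Cje. Log2 CPM used a prior count of 2. Correlations and chromosome medians used genes with a mean log2 CPM above 1. Shares were tested by exact permutation with scipy 1.17.1. The code was tested on simulated data, in which edgeR picked up 0 of 67 genes altered by a factor of 1.5. For a factor of 2 it picked up 7 of 67, and for a factor of 4 it was 43 of 66. DESeq2 picked up 27 of 67 at a factor of 2. Among the 13621 genes left unaltered, 5 passed wrongly by edgeR, while by DESeq2 it was 40. A gene that did not pass may thus still differ by a factor of 2.

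The members, gene lists and tests were chosen with earlier results of these data known. Named were all members, up to 4 tested genes of each list with the smallest p and its 2 with the highest mean TPM, target genes with a count, genes within 50 kb of Tmem88, the 5 most correlated genes by each measure, Csf1r and Spi1. Spi1, a macrophage transcription factor, was at 235 to 266 TPM in Ts1Cje and 186 to 275 TPM in wild-type libraries. Other genes, such as Tmem88b, Wnt ligands at 0 and markers, were named after their values were seen. The alternatives tried were upper-quartile and RLE factors, TMM without chromosome 16 or 19, no filter, a count minimum of 50, DESeq2 1.42.0, limma 3.58.1 (voom, and log2 TPM with pseudocounts of 1 and 0.1 and a minimum TPM of 1 or none), a block for replicate number and leaving out each library. Gene positions are from GENCODE M21, and promoter windows from RefSeq.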

Additional observations from a re-analysis of the deposited data

How the results depend on the processing

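Tmem88 was left out of the count, since it was picked for its difference. Of the 9 other genes and of the listed pathway genes, 0 passed the adjusted threshold under each of the 18 alternatives. Over all genes, the count passing was 1, against 3 without a filter, 44 with DESeq2, 0 with the replicate block and 1 to 6 with a library left out (6 without wild-type replicate 3). The cause of these shifts was not tested. Same-numbered libraries did not deviate together (r = -0.29, -0.04 and -0.17 over 10797 genes). With 3 lots per genotype, these values cannot show whether same-numbered libraries were grown or prepared together. The fit with the block left 634 genes with an unadjusted p under 0.05. That count was 800 of 13821 genes in the main fit, 1363 of 24506 without a filter and 2347 of 14620 without wild-type replicate 3. With DESeq2 it was 1132 of 24506. For the pathway lists the count was 6 of 59, against 15 of 64 without wild-type replicate 3, where 16.1% of all genes had such a p. It was 12 without a filter and 10 with DESeq2. Those fits tested more genes, so 12 and 10 cannot be set against the 59. The log2 fold change of Tmem88 was -2.08 to -1.93 under the alternatives that kept all libraries. Gsk3b turned negative with upper-quartile factors (-0.0073). With single libraries left out, log2 fold changes that changed sign were -0.58 to 0.0080 for Dvl1, -0.12 to 0.077 for Dvl2, -0.092 to 0.022 for Dvl3, -0.17 to 0.054 for Ctnnb1, -0.17 to 0.045 for Apc and -0.079 to 0.13 for Gsk3b. Differences of shares, in percentage points Ts1Cje minus wild-type, were -2.21 to 0.528 for Dvl1, -0.547 to 1.35 for Dvl2, -0.272 to 1.03 for Dvl3, -0.867 to 0.271 for Tcf7l1 and -0.275 to 1.06 for Tcf7l2. Depth limits the low genes: Axin2, at 0 counts, gave no value under any alternative.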
